A study of Mus musculus with 15 samples.

Results

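Potassium channel genes were examined in the thalamus of 4.5-month-old mice of 4 genotypes by bulk RNA-seq. The genes were chosen by name and level, not by any difference between genotypes: of 97 symbols beginning with Kcn, 5 pseudogene, opposite-strand or overlapping transcripts were dropped, and of the 92 that were kept, 79 had a mean log2 value of 3.32 or more over the 15 libraries. The 79 genes were among 15726 that passed the same level out of 29659 in the files. All 4 groups carried human APOE4 in place of mouse Apoe. EL mice (n = 3) were APOE4+/+ with Lilrb4a intact, and ELKO mice (n = 3) were APOE4+/+/Lilrb4a-/-, lacking the leukocyte immunoglobulin-like receptor Lilrb4a in the whole animal. 5EL mice (n = 5) were 5xFAD/APOE4+/+/Lilrb4a+/+ and 5ELKO mice (n = 4) were 5xFAD/APOE4+/+/Lilrb4a-/-, where 5xFAD stands for amyloid-producing human transgenes driven in neurons by the Thy1 promoter. The study asked what loss of Lilrb4a does to microglia and amyloid, and EL and ELKO supply the same comparison without amyloid.

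Potassium channels let potassium leave or enter the cell, and by doing so they set the resting potential, end action potentials and space out firing. Voltage-gated (Kv) channels open on depolarisation, inward rectifiers (Kir) and two-pore-domain (K2P) channels work near rest, and calcium- or sodium-activated channels couple firing to the ions that firing admits. In thalamus, relay neurons switch between burst and tonic firing, the GABA neurons of the reticular nucleus inhibit them, and astrocytes take up the potassium that both release.

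Before the channels were compared, the libraries were checked against their labels. Lilrb4a, on the log2 scale, lay between 2.34 and 2.66 in the 8 libraries with the gene and at 2.33 in every library labelled as lacking it. Libraries with the gene were thus little above those without it, and a low value on this scale need not mean expression. Mouse Apoe lay between 5.92 and 6.37 in 14 libraries and at 10.90 in ELKO replicate 1, whose label gives APOE4+/+; counts and called genes of the ELKO comparisons are therefore also given without this library. All 12 relay neuron markers passed the level of 3.32, with list means between 11.89 and 12.20 in log2. The mean of 9 reticular nucleus and GABA neuron markers was 7.48 in EL replicate 3, 8.05 in 5EL replicate 1, 8.17 in ELKO replicate 3 and between 8.69 and 9.71 in the other libraries. The mean of 12 choroid plexus markers was 9.01 in ELKO replicate 2, 8.63 in 5EL replicate 1 and between 6.50 and 7.06 elsewhere. In bulk tissue, fewer cells of a type and less RNA per cell cannot be told apart.

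The level of the channel genes in thalamus ran from 1.68 to 11.16 in log2 per kb of exon, and a few genes carried most of it. The 10 highest genes made up 55.6% of the level summed over the 79 (linear scale, per kb). Kcnj10, the astrocytic inward rectifier that clears potassium from the extracellular space, stood first at 11.16 ± 0.024 (SE, n = 15 libraries; log2 per kb, as are all levels in this paragraph). Kcnab2, a cytoplasmic beta subunit of Kv1 channels, followed at 10.44 ± 0.035, and Kcnc2, a Kv3 pore subunit that ends action potentials quickly in fast-firing neurons, at 10.18 ± 0.041. Kcnj9, a G protein-gated inward rectifier, was at 9.92 ± 0.030, and Kcnk1, a two-pore leak channel, at 9.80 ± 0.046. Next came Kcnd2 at 9.58, a Kv4 subunit that carries the transient A-type current in dendrites, then its calcium-binding partner Kcnip4 at 9.52. Kcnc1 at 9.03, Kcnip3 at 8.97 and the axonal Kv1 subunit Kcna2 at 8.96 completed the 10. Kcnj10 was above Kcnab2 in all 15 libraries, by 0.72 ± 0.18 (SD), Kcnab2 above Kcnc2 by 0.26 ± 0.084, Kcnc2 above Kcnj9 by 0.26 ± 0.095, and Kcnip4 above Kcnc1 by 0.49 ± 0.17, also in all 15. The order was less clear elsewhere: in 63 of the 78 neighbouring pairs the difference was within 1 SD of its spread over libraries, Kcnc1, Kcnip3 and Kcna2 among them. Kcnj10, Kcnab2 and Kcnc2 kept places 1, 2 and 3 when levels were divided by the longest transcript in place of all exons.

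**Figure D1:**
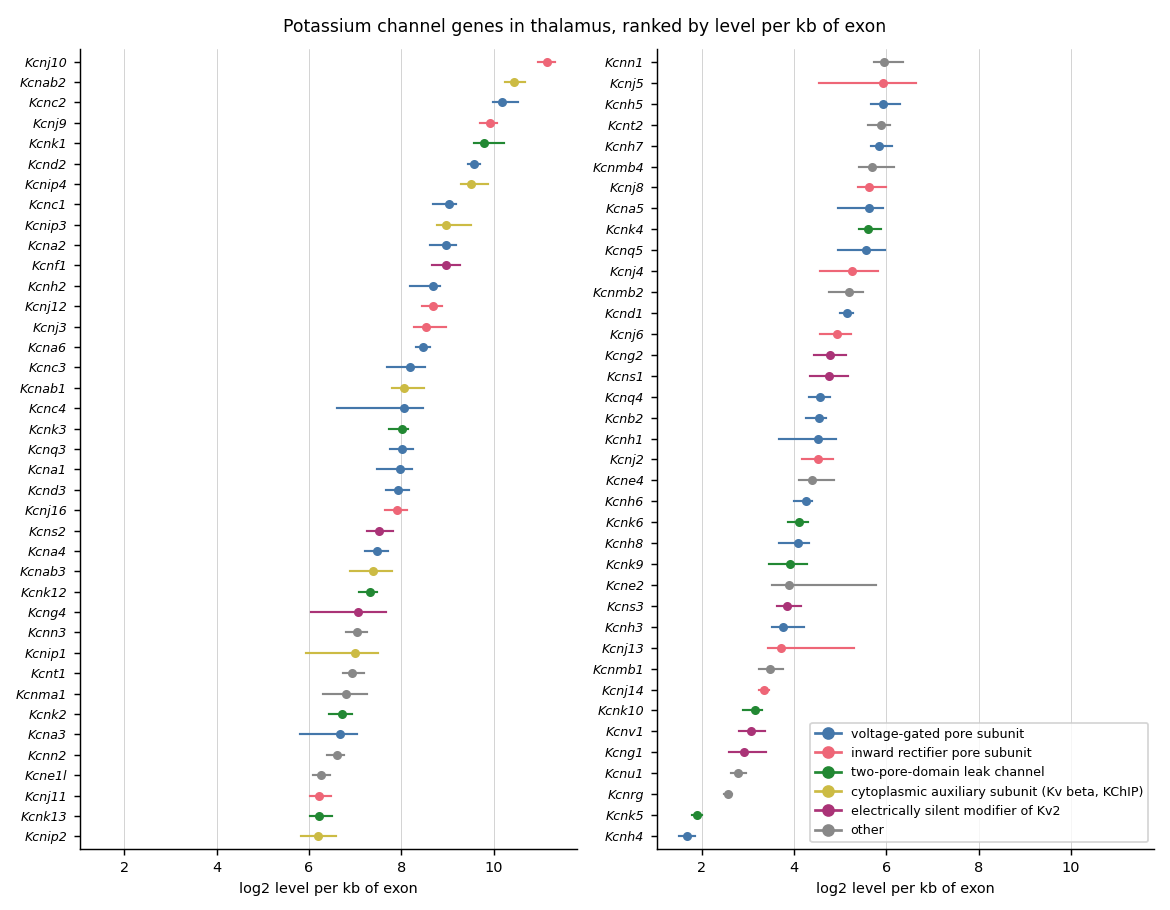
Potassium channel genes in order of level, without those not reported singly. Points are means over 15 libraries in log2 per kb of exon, lines run from the lowest to the highest library, and colours give the type of subunit. Kcnj10 leads at 11.16 and Kcnh4 closes the order at 1.68, and the longest lines belong to Kcne2, Kcnj5, Kcnc4 and Kcnj13.

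By role, the 27 voltage-gated pore subunits held 36.3% of the summed level per kb and the 13 inward rectifiers 26.2%. The 7 cytoplasmic auxiliary subunits, 3 Kv beta and 4 KChIP genes, held 18.7% and the 10 two-pore channels 9.05%. The 8 electrically silent modifiers of Kv2, which form no channel alone, held 5.15%, led by Kcnf1 at 8.96 log2 per kb. Among voltage-gated families the Kv3 genes came first with 12.8%, followed by Kv1 with 8.20%, Kv4 with 5.98% and Kv7 with 4.13%. Kcnq3 of the Kv7 family, which carries the M-current that muscarinic receptors suppress, was at 8.01 log2 per kb, and Kcnh2 at 8.70. The 4 calcium-activated pore subunits were lower on this scale, with Kcnn3 at 7.03, Kcnma1 (the large-conductance BK pore) at 6.80 and Kcnn2 at 6.60. The sodium-activated Kcnt1 stood at 6.93.

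The lowest members were Kcnrg at a mean log2 value of 3.45, Kcnh4 at 3.66 and Kcnk5 at 3.67, and 13 kept symbols fell below the level. Just outside were Kcnn4 at 3.15, a calcium-activated channel known from microglia and other immune cells, Kcnq1 at 3.04 and Kcng3 at 2.16. Kcnn4 ranged from 3.05 to 3.25 over the 15 libraries, 5xFAD and not. Deposited values of low genes lie close together, so this narrow range does not show that Kcnn4 was unchanged. Kcnn4 was left out of the comparisons below because of its level.

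All 79 genes are protein coding, and they lie on 19 chromosomes (GRCm38). In 5 places members lie within 250 kb of each other, among them Kcnj9 and Kcnj10 on chr1:172320501-172374085, places 4 and 1 of the order, and Kcna5, Kcna1 and Kcna6 on chr6:126532551-126740674. Reads were counted without regard to strand, and 7 members share over 10% of their exon bases with another gene, led by Kcnj13 with 49.1% (Gigyf2), Kcna6 with 39.6%, Kcnmb4 with 31.5% and Kcnj3 with 31.1%. The values of those 7 may include or lack reads of the overlapping gene.

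Loss of Lilrb4a in 5xFAD mice, the comparison at the centre of the study, gave 0 of 79 channel genes an adjusted p under 0.05 and 0 of them a nominal p under 0.05 (limma, 5ELKO against 5EL, 9 libraries). Of all genes tested, 2.47% passed the nominal threshold, 1.52% higher and 0.954% lower in 5ELKO, and 0.0191% (3 genes) the adjusted one. In 0 of 79 genes were the groups free of overlap, against 1.06% of all genes. Log2 differences of the 79 ran from -0.39 to 0.27 with a median of 0.0057, against a median of 0.0016 over all genes tested, and 43 of them were positive. The 95% interval of the difference had a median half-width of 0.18 log2 units, and in 74 of 79 genes it lay wholly within 0.5 units of no difference, so that larger differences were outside the interval for those genes. The count at a nominal p under 0.05 was 5 without 5ELKO replicate 1, 4 without 5EL replicate 2, 2 without 5EL replicate 5 or 5ELKO replicate 2 and 1 without 5ELKO replicate 4. Over all genes tested, 239 higher and 150 lower became 314 and 180 without 5ELKO replicate 1 and 345 and 180 without 5EL replicate 2.

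Kcnj10 read 13.71, 13.39, 13.66, 13.60 and 13.60 in 5EL and 13.47, 13.68, 13.63 and 13.75 in 5ELKO (log2, replicates in order). The groups overlapped, and the difference was 0.04 with a 95% interval from -0.11 to 0.20 (exact permutation p = 0.579). Its heteromeric partner Kcnj16 differed by 0.07, from -0.10 to 0.25. For Kcnk13, a two-pore channel that microglia use as their main resting potassium conductance, the log2 values were 7.89, 7.84, 7.81, 7.73 and 7.69 in 5EL and 7.67, 7.91, 8.08 and 8.13 in 5ELKO. 3 of the 4 5ELKO libraries were above every 5EL library and replicate 1 was below them all, a difference of 0.15 with an interval from -0.04 to 0.34 (exact permutation p = 0.175). Without 5ELKO replicate 1 the Kcnk13 difference was 0.25 at a nominal p of 0.0052 and an adjusted p of 0.999 (limma). Kcna3, the Kv1 subunit of lymphocytes and activated microglia, differed by -0.08, with an interval from -0.29 to 0.14.

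Neuronal channels of a preset list were close between 5ELKO and 5EL, in log2 differences with 95% intervals. Their levels ran from 10.44 log2 per kb for Kcnab2 down to 3.92 for Kcnk9. Kcnc2 differed by 0.09 (-0.05 to 0.22), Kcnc1 by 0.02 (-0.17 to 0.22) and Kcna2 by 0.02 (-0.18 to 0.22). For Kcnd2 the interval ran from -0.13 to 0.13, and its partner Kcnip4 differed by -0.03 (-0.13 to 0.07). The rectifier Kcnj9 differed by 0.05 (-0.11 to 0.20) and the Kv1 beta subunit Kcnab2 by -0.02 (-0.18 to 0.14). The leak channels Kcnk1, Kcnk3 and Kcnk9, of which the latter pair hold relay neurons near rest and close when modulatory transmitters act, differed by -0.08 (-0.24 to 0.09), 0.07 (-0.08 to 0.22) and -0.04 (-0.33 to 0.25). The M-current subunit Kcnq3 differed by 0.05 (-0.12 to 0.21). Every one of these intervals included no difference.

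The smallest nominal p in this comparison belonged to Kcnj14, a neuronal Kir2 channel of low level, at 4.74, 4.69, 4.72, 4.76 and 4.79 in 5EL and 4.80, 4.90, 4.86 and 4.77 in 5ELKO on the log2 scale. 3 of 4 5ELKO libraries were above all 5EL libraries, a log2 difference of 0.091 ± 0.042 (SE) at a nominal p of 0.0516, an adjusted p of 0.999 (limma) and an exact permutation p of 0.0238. Kcns1, a silent modifier, was next at 0.25 ± 0.13 (SE; exact permutation p = 0.190). Disease-associated microglia markers were between 7.52 and 8.06 in the 5EL and between 7.46 and 8.09 in the 5ELKO libraries as a list mean in log2, and 7.38 to 7.55 without 5xFAD.

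**Figure D2:**
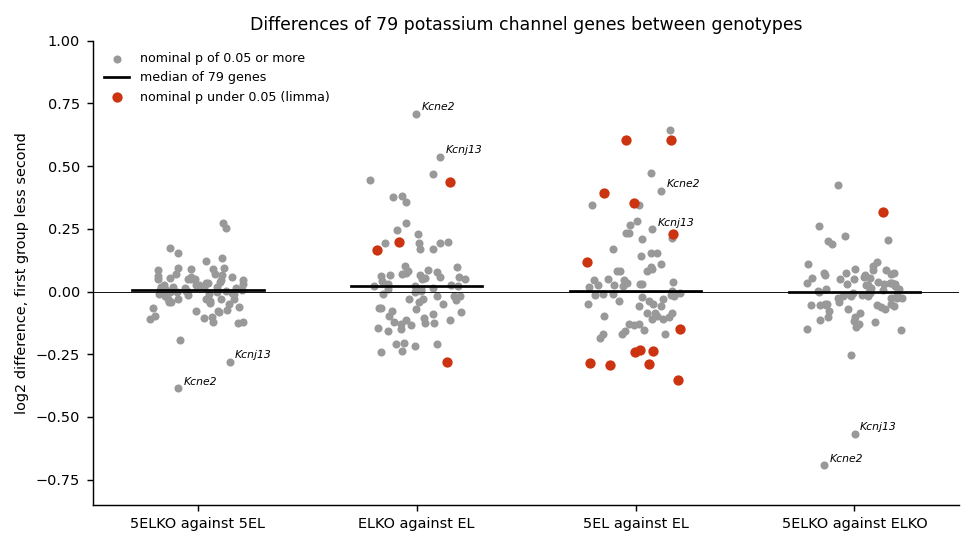
Log2 differences of the 79 genes in 4 comparisons of genotypes, first group less second; each point is 1 gene, the bar is the median, and larger filled points passed a nominal p under 0.05 in limma. Of the genes, 0, 4, 14 and 1 did so from left to right, and the 2 labelled genes with the largest differences in the ELKO comparisons did not.

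Without 5xFAD, loss of Lilrb4a gave 4 of 79 channel genes at a nominal p under 0.05, 3 higher and 1 lower in ELKO than in EL, and 0 at an adjusted p under 0.05 (limma on all 15 libraries). That is 5.06% of the channel genes beside 2.35% of all genes tested, of which 1.04% were higher and 1.3% lower and 0 passed the adjusted threshold. With each library recentred on its own median the split was 3 higher and 2 lower, and over all genes 98 higher and 316 lower in place of 164 and 205. In 3 of 79 genes the groups did not overlap, 3.8% beside 4.58% of all genes. The median log2 difference was 0.020 beside 0.0033 over all genes, and 44 of 79 were positive. Without ELKO replicate 1, the library with mouse Apoe, the split turned to 1 higher and 2 lower, 30 of 79 differences were positive and their median was -0.034. Of all genes tested, 184 were then higher and 161 lower.

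Kcna5, a Kv1 delayed rectifier best known from heart and vessel muscle, read 7.17, 6.78 and 6.48 in EL and 7.39, 7.14 and 7.21 in ELKO on the log2 scale. 2 of 3 ELKO libraries were above all EL libraries, and the difference was 0.44 ± 0.15 (SE; nominal p = 0.0117, adjusted p = 0.998, limma; exact permutation p = 0.2). Kcnk6, a two-pore channel of the Kcnk1 family, read 6.02, 6.02 and 5.92 in EL and 6.14, 6.19 and 6.13 in ELKO, log2. Its groups did not overlap, with a difference of 0.17 ± 0.064 (SE; nominal p = 0.0200) and the smallest exact permutation p that 3 against 3 allows, 0.1. Kcnk10, a lipid- and stretch-gated two-pore channel, was 0.20 ± 0.080 (SE) higher in ELKO at a nominal p of 0.0259. Kcnj3, the obligate partner in most neuronal G protein-gated rectifiers, read 10.89, 11.17 and 11.36 in EL and 10.86, 10.76 and 10.96 in ELKO, log2, a difference of -0.28 ± 0.11 (SE; exact permutation p = 0.2). Without ELKO replicate 1, Kcnk6 at 0.17 and Kcnj3 at -0.28 passed the nominal threshold and Kcna5 at 0.37 and Kcnk10 at 0.16 did not, while Kcnq3 at -0.28 did (log2). Without EL replicate 3 none of the 4 passed, and the differences were 0.27 for Kcna5, 0.14 for Kcnk6, 0.14 for Kcnk10 and -0.17 for Kcnj3 (log2).

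The EL and ELKO libraries of one replicate number varied together. In other pairs of groups such correlations were lower, from -0.330 (EL and 5ELKO) to 0.310 (ELKO and 5EL). A block for the number was fitted over all 15 libraries, so 1 shift per number was shared by all 4 groups. It was therefore not a pairing of EL with ELKO alone. With this block 6 members passed a nominal p under 0.05, 5 higher and 1 lower. The additional ones were Kcnj2 at 0.19 and Kcnh1 at 0.45, on the log2 scale. All 6 had an adjusted p of 0.964 in limma. Of all genes tested, 204 were higher and 232 lower with the block. The nominal count was 0 without EL replicate 3, 24 without EL replicate 1, 14 without ELKO replicate 3, 1 without ELKO replicate 2 and 3 without ELKO replicate 1. Counts over all genes moved too, from 164 higher and 205 lower to 979 and 845 without EL replicate 1. They were 796 and 573 without ELKO replicate 3, and 92 and 117 without EL replicate 3.

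5xFAD with Lilrb4a intact gave the most channel genes at a nominal p under 0.05: 14 of 79, 6 higher and 8 lower in 5EL than in EL, and 0 at an adjusted p under 0.05 (limma). That is 17.7% of the channel genes beside 7.71% of all genes tested, 3.83% higher and 3.88% lower, of which 0 passed the adjusted threshold either. In 4 of 79 genes the groups did not overlap, 5.06% beside 3.26% of all genes. The median of the 79 log2 differences was 0.0018, against 0.00063 over all genes, and the median size of a difference regardless of sign was 0.11 against 0.065. All 14 had an adjusted p of 0.630. With each library recentred on its own median the split was 5 higher and 8 lower, and over all genes 457 higher and 771 lower in place of 602 and 610.

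Among inward rectifiers, Kcnj2, which sets the resting potential in many cell types, was higher in every 5EL library than in any EL library. Its log2 values were 6.84, 6.74 and 6.62 in EL and 7.04, 7.01, 6.88, 7.29 and 7.20 in 5EL, a difference of 0.35 ± 0.12 (SE; nominal p = 0.0082, exact permutation p = 0.0357). Kcnj3 differed by -0.28 ± 0.10 and Kcnj8, the pore of vascular ATP-sensitive channels in pericytes and smooth muscle, by -0.29 ± 0.10 (SE, log2; exact permutation p = 0.0893 and 0.0536). In both, EL replicate 1 fell among the 5EL libraries. The mean of 8 pericyte and smooth muscle markers, all of which passed the level, was 8.40, 8.56 and 8.56 in EL and between 8.31 and 8.45 in 5EL (log2), so that the same EL libraries were high in it as in Kcnj8. On the linear scale the list summed to between 5012 and 5735 in EL and between 4843 and 5260 in 5EL, and its part in the Kcnj8 difference was not tested.

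Among two-pore channels, Kcnk6 had the smallest nominal p of all 79 genes. It read 6.02, 6.02 and 5.92 in EL and 6.26, 6.16, 6.23, 6.23 and 6.20 in 5EL on the log2 scale. The groups did not overlap, and the difference of 0.23 ± 0.057 (SE), a 1.17-fold difference, had a nominal p of 0.0012 and an exact permutation p of 0.0179, the smallest that 5 against 3 allows. Kcnk3, an acid-sensitive leak channel of relay neurons, was lower without overlap: 10.13, 10.13 and 10.04 in EL and 10.03, 9.73, 9.93, 10.03 and 10.02 in 5EL, log2. That difference was -0.15 ± 0.069 (SE; exact permutation p = 0.0893), and EL replicate 3 lay next to the highest 5EL libraries.

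Among voltage-gated subunits, Kcnh1 (ether-a-go-go) read 7.38, 6.89 and 6.56 in EL and 7.51, 7.79, 7.58, 7.46 and 7.38 in 5EL, log2. All EL libraries were below all 5EL libraries, the highest of them only just, and the difference was 0.60 ± 0.19 (SE; nominal p = 0.0073, exact permutation p = 0.0179). Kcnc2, next to Kcnab2 in level, read 12.99, 13.29 and 13.36 in EL and 12.86, 12.87, 12.81, 13.01 and 13.05 in 5EL, log2. Here EL replicate 1 fell among the 5EL libraries, and the difference was -0.29 ± 0.091 (SE; nominal p = 0.0054, exact permutation p = 0.0714). Kcnc4, another Kv3 subunit, differed by 0.60 ± 0.27 and Kcna5 by 0.39 ± 0.14 (SE, log2; exact permutation p = 0.125 and 0.0893). The low-level Kcnh4 differed by 0.12 ± 0.056 (SE, log2; exact permutation p = 0.179).

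The remaining 4 were auxiliary subunits and all were lower in 5EL. Kcnab1, a beta subunit that speeds inactivation of Kv1 channels, read 11.21, 11.44 and 11.60 in EL and 11.26, 10.90, 11.03, 11.03 and 11.09 in 5EL, log2, with a difference of -0.35 ± 0.11 (SE; nominal p = 0.0051, exact permutation p = 0.0357). Of the Kv4 partners, Kcnip4 differed by -0.23 ± 0.082 and Kcnip3 by -0.24 ± 0.10 (SE, log2), while Kcnip1, at 0.47 ± 0.24 with a nominal p of 0.0681, pointed the other way. Kcne4 differed by -0.24 ± 0.11 (SE, log2; exact permutation p = 0.107).

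Much of this contrast changed with 1 library. EL replicate 3 was the lowest or the highest of the 15 libraries for 41 of 79 channel genes, 51.9%, and for 45.1% of all genes tested. For 13 of the 14 genes above it was the extreme library (6 lowest, 7 highest, Kcnk3 the exception). It is also the library lowest in reticular and GABA markers: 8 of the 9 genes of that list were lowest in it among EL libraries. Of 15 marker lists it had the lowest mean in 6, among them habenula at 7.93 and astrocyte at 11.58, and the highest in 1, erythroid at 5.52, and its oligodendrocyte mean was 12.28 where the highest library had 12.31 (log2). The 3 libraries lowest in reticular and GABA markers were also the 3 lowest in habenula markers, at 7.93, 8.25 and 8.32 against at least 8.75 elsewhere. The reticular and GABA list, all 9 genes of which passed the level, summed on the linear scale to between 2350 and 6857 in EL, 3343 and 10836 in 5EL, 3704 and 7673 in ELKO and 7404 and 12314 in 5ELKO. Without EL replicate 3, 5 of the channel genes passed a nominal p under 0.05 in 5EL against EL. They were Kcnk6 at 0.20, Kcnj2 at 0.29, Kcnab1 at -0.26, Kcnc2 at -0.22 and Kcnk3 at -0.18 (log2 differences). All 14 kept their direction, but 7 fell in size by over 1.5 times: Kcnc4 to 0.10, Kcna5 to 0.23, Kcnip3 to -0.07, Kcne4 to -0.12, Kcnip4 to -0.14, Kcnj3 to -0.18 and Kcnh4 to 0.073. Without EL replicate 1 the count was 31, and without 5EL replicate 2 it was 9. Counts over all genes tested moved too, from 602 higher and 610 lower to 173 and 177 without EL replicate 3. They were 1682 and 1514 without EL replicate 1, and 467 and 450 without 5EL replicate 2.

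With the 3 libraries lowest in reticular and GABA markers left out together, 7 channel genes passed the nominal threshold in 5EL against EL, and with the list mean as a covariate 5 did. Of all genes tested, 244 were higher and 285 lower in the former setting, and 206 and 209 in the latter. Kcnk6, Kcnj2 and Kcnab1 were among them in both settings and without EL replicate 3. The settings were chosen after the data were seen, and the part of the GABA neuron genes in these differences was not tested beyond them, nor that of the other lists.

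**Figure D3:**
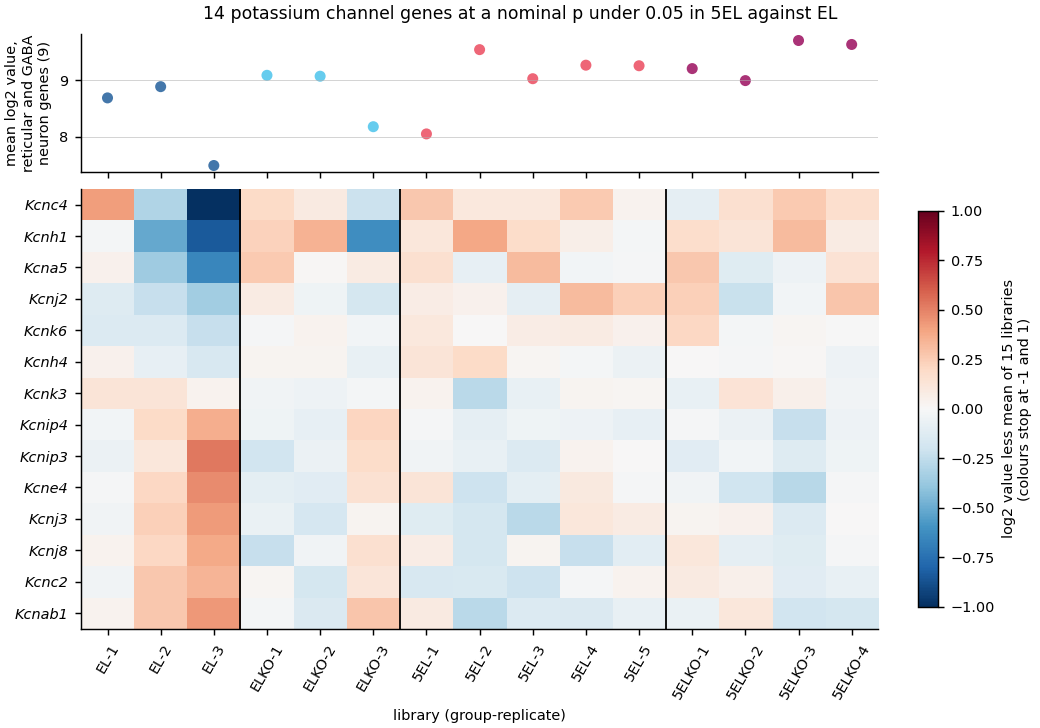
The 14 channel genes at a nominal p under 0.05 in 5EL against EL, in all 15 libraries. The upper panel gives the mean log2 value of 9 reticular and GABA neuron markers, the colours below give each gene's log2 value less its mean over the libraries, and vertical lines part the groups. EL-3, at 7.48 in the upper panel, holds the lowest or highest value in 13 of 14 rows, and ELKO-3 leans the same way in several.

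With Lilrb4a deleted, 5xFAD gave 1 of 79 channel genes at a nominal p under 0.05, higher in 5ELKO than in ELKO, and 0 at an adjusted p under 0.05 (limma). That is 1.27% of the channel genes beside 2.35% of all genes tested, 1.46% higher and 0.884% lower. With libraries recentred the channel genes had the same count, and all genes split into 277 higher and 94 lower in place of 230 and 139. The gene was Kcnip2, a KChIP subunit of Kv4 channels, at 7.94, 7.88 and 7.79 in ELKO and 8.08, 8.11, 8.39 and 8.16 in 5ELKO, log2. Every 5ELKO library was above every ELKO library, and the difference was 0.32 ± 0.12 (SE; nominal p = 0.0171, adjusted p = 0.999), with an exact permutation p of 0.0286, the smallest that 4 against 3 allows. It was the 1 channel gene whose groups did not overlap, beside 3.37% of all genes. Without ELKO replicate 1 the Kcnip2 difference was 0.35 and 3 channel genes passed the nominal threshold, the others being Kcnj4 at 0.56 and Kcnj13 at -0.88 (log2). Of all genes tested, 385 were then higher and 397 lower. Kcnj13 read 5.65 in ELKO replicate 2, a library rich in choroid plexus markers, and 3.82 in ELKO replicate 3 (log2). With ELKO replicate 2 left out instead, its difference was 0.046. Kcnip2 missed the nominal threshold without 5ELKO replicate 3 (0.25) and without ELKO replicate 3 (0.28), and the count was 3 without 5ELKO replicate 1 and 2 without 5ELKO replicate 2, EL replicate 1 or EL replicate 3. Over all genes tested, 228 were higher and 141 lower without 5ELKO replicate 1, and 293 and 121 without 5ELKO replicate 2. In 5EL against EL Kcnip2 differed by 0.21, with a 95% interval from -0.03 to 0.45.

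The effect of Lilrb4a loss differed between mice with and without 5xFAD at a nominal p under 0.05 for 5 of 79 channel genes, 2 higher and 3 lower, and for 0 at an adjusted p under 0.05 (limma, interaction). That is 6.33% beside 2.71% of all genes tested, 1.49% higher and 1.22% lower. With libraries recentred, 4 channel genes were higher and 2 lower, and 332 of all genes were higher and 129 lower in place of 234 and 192. The interaction was positive for Kcnj3 at 0.34 ± 0.15 and Kcnc2 at 0.29 ± 0.13, and negative for Kcna5 at -0.45 ± 0.20, Kcnh8 at -0.40 ± 0.17 and Kcnk6 at -0.18 ± 0.083 (SE, log2). EL replicate 3 was the highest library in the first pair and the lowest for Kcna5 and Kcnk6 and also for Kcnh8. Without ELKO replicate 1, Kcnq3 at 0.33 and Kcne2 at -1.45 (log2) passed the nominal threshold in place of those 5 genes, which were then at 0.34, 0.31, -0.38, -0.36 and -0.18 in the order above. Of the ELKO libraries that remained, replicate 2, rich in choroid plexus markers, read 6.59 in Kcne2 and replicate 3 read 4.40 (log2). The count was 14 without EL replicate 1, 9 without ELKO replicate 3, 3 without 5EL replicate 3, 2 without 5EL replicate 2 or 5ELKO replicate 4, 1 without EL replicate 3 or ELKO replicate 2 and 0 without EL replicate 2 or 5ELKO replicate 2. Over all genes tested, 586 were higher and 636 lower without EL replicate 1, and 384 and 461 without ELKO replicate 3. They were 185 and 158 without EL replicate 2, and 210 and 126 without 5ELKO replicate 2.

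**Figure D4:**
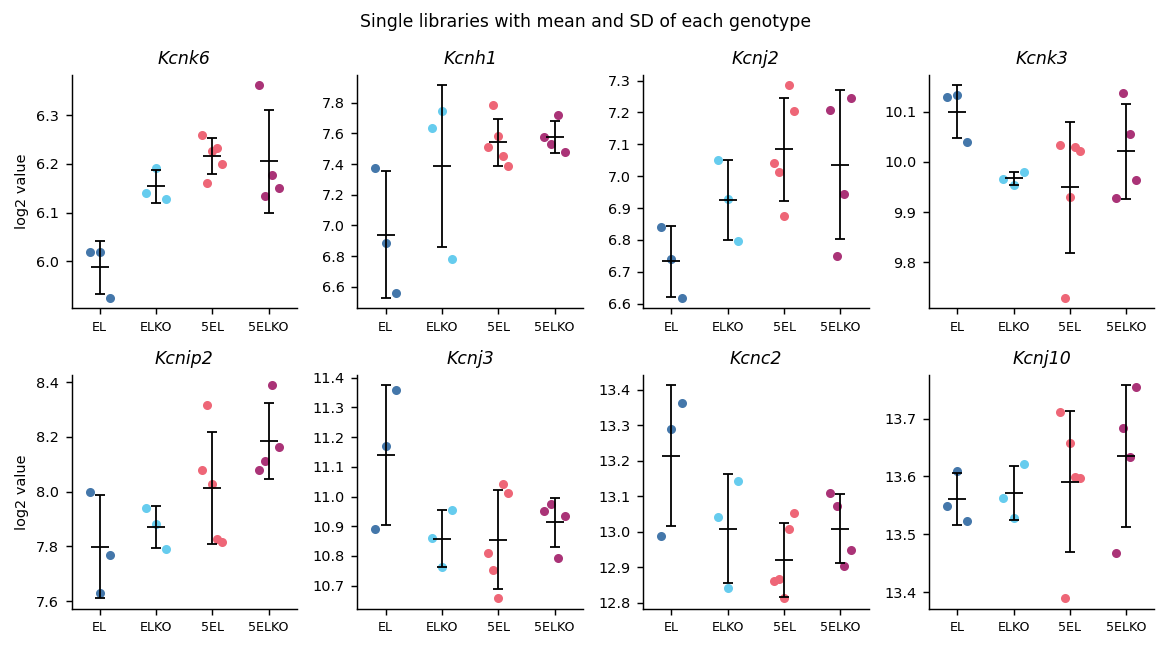
Log2 values of 8 channel genes by genotype; points are libraries, and the bar and whiskers are mean and SD (EL n = 3, ELKO n = 3, 5EL n = 5, 5ELKO n = 4). Kcnk6, Kcnh1 and Kcnj2 in 5EL lie above EL and Kcnk3 below it without overlap, Kcnip2 in 5ELKO lies above ELKO, and Kcnj10 overlaps between all groups.

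The channel genes that varied most within a genotype followed particular libraries. The pooled SD within groups was largest for Kcne2 at 0.70, Kcnj13 at 0.58, Kcnj5 at 0.52, Kcng4 at 0.51 and Kcnc4 at 0.43 (log2, 15 libraries). Kcnj13 encodes an inward rectifier of the apical membrane of epithelia and Kcne2 a single-span subunit that joins Kv channels, and the choroid plexus epithelium is a known site of both. Kcnj13 read 5.65 in ELKO replicate 2 and 5.19 in 5EL replicate 1, and between 3.79 and 3.99 in the other libraries (log2). Kcne2 read 6.59 and 6.15 in the same libraries and between 4.35 and 4.57 elsewhere. All 12 choroid plexus markers were highest in ELKO replicate 2 among ELKO libraries, and 11 of 12 in 5EL replicate 1 among 5EL libraries. On the linear scale this list summed to between 5111 and 6396 in EL, 5881 and 51682 in ELKO, 5951 and 33154 in 5EL and 5664 and 7492 in 5ELKO.

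With ELKO replicate 2 included, Kcne2 and Kcnj13 had the largest differences in the ELKO comparisons, and none passed. Kcne2 was 0.71 higher in ELKO than in EL, with a 95% interval from -0.33 to 1.75, and Kcnj13 0.54 higher, from -0.33 to 1.40 (log2). Without ELKO replicate 2 the differences were -0.01 and -0.08. Against ELKO, 5ELKO differed by -0.69 in Kcne2 and -0.57 in Kcnj13, and by 0.03 and 0.05 without that library.

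**Figure D5:**
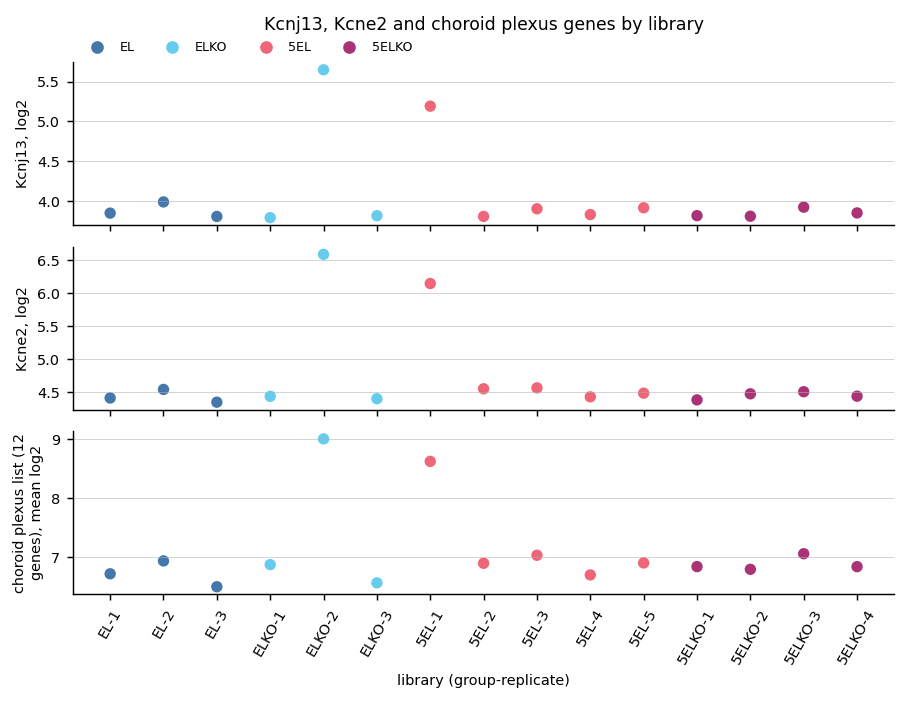
Kcnj13, Kcne2 and the mean of 12 choroid plexus markers in each of the 15 libraries, in log2 and coloured by genotype. ELKO-2 and 5EL-1 stand above the rest in all 3 panels, for example at 6.59 and 6.15 against at most 4.57 in Kcne2.

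Because Kcnj13 and Kcne2 were high in the same libraries, their promoters are shown beside that of Kcnj10, the channel gene of highest level. Each is the 250 bases before the gene's start from RefSeq (GRCm38.p6), printed in the direction of transcription with CG dinucleotides in capitals. They lie at chr1:87394730-87394979 (minus strand), chr16:92292139-92292388 (plus strand) and chr1:172340960-172341209 (plus strand).
Kcnj13: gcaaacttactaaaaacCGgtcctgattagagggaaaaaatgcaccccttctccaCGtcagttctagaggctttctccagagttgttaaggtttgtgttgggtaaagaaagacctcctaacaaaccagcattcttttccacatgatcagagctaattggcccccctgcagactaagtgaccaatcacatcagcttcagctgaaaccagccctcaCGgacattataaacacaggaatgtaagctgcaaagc
Kcne2: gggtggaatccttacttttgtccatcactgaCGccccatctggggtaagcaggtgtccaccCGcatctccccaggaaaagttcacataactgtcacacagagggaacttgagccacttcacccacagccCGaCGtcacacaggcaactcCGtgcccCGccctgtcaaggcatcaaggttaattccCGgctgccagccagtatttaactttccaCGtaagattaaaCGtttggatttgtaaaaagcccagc
Kcnj10: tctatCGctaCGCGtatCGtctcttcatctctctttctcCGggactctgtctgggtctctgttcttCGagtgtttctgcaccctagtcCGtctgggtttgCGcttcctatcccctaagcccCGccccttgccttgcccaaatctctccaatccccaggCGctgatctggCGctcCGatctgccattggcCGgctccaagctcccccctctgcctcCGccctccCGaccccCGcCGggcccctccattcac
These stretches hold 3, 9 and 17 CG dinucleotides. In the full window of 300 bases, with 50 after the start, Kcnj13 has 5, Kcne2 9 and Kcnj10 21, against a median of 12 over the 57 channel genes with a promoter in the table and 20 over 11414 of the genes tested. The letters TAATCC, read on both strands as a match to the core of sites bound by homeobox factors such as OTX2 of the choroid plexus, occurred in neither Kcnj13 nor Kcne2. They occurred in 3 of 57 channel gene windows, 5.26%, and in 5.45% of the windows of genes tested. The 3 were Kcnj9, Kcng4 and Kcnrg, named after their values were seen.

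The other variable genes are neuronal. Kcnj5, a G protein-gated rectifier, read 8.58, 7.76 and 6.78 in EL, 8.37, 8.33 and 7.54 in ELKO, 8.87, 8.09, 8.74, 8.01 and 8.04 in 5EL and 8.07, 8.64, 8.30 and 8.36 in 5ELKO (log2). EL replicate 3 and ELKO replicate 3 were lowest in their groups, as for reticular and GABA markers, but 5EL replicate 1, second lowest in those markers, was the highest library for Kcnj5. Kcng4, a silent modifier, read 8.58, 9.15 and 8.54 in EL, 9.33, 9.59 and 8.42 in ELKO, 7.97, 9.59, 8.88, 9.13 and 9.53 in 5EL and 9.12, 8.95, 9.34 and 8.74 in 5ELKO (log2). All 3 libraries low in reticular and GABA markers were lowest in their group for it. Kcnc4 spanned 1.88 log2 units between EL replicate 3 at 8.47 and EL replicate 1 at 10.35, both of 1 genotype, and between 9.64 and 10.20 in the rest. At the other end, Kcnj14 had a pooled SD of 0.053, Kcnrg of 0.056 and Kcnk6 of 0.066. Kcnj14 and Kcnrg have low mean log2 values, 4.80 and 3.45, and deposited values of low genes lie close together. Their small SD need not mean that they varied less. Among the 10 genes of highest level, Kcnd2 varied least, with 0.086, and Kcnk1 most, with 0.18.

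Other genes that bear on potassium handling were counted for comparison from a list of 31: the HCN channels, partner proteins of Kv channels, sulfonylurea receptors, BK gamma subunits, sodium-potassium pump subunits and potassium-chloride cotransporters. Of these 30 passed the level, and 0 of 30 passed a nominal p under 0.05 in 5ELKO against 5EL, ELKO against EL, 5ELKO against ELKO or the interaction (limma). Of all genes tested 2.47%, 2.35%, 2.35% and 2.71% did so, shares at which 0 of 30 tells little. In 5EL against EL 2 of 30 passed, beside 7.71% of all genes tested. Among them was Dpp10, a transmembrane partner of Kv4 channels, which differed by -0.17 ± 0.059 (SE, log2; adjusted p = 0.630, limma). Dpp10 lay between 12.11 and 12.15 in EL and between 11.82 and 12.08 in 5EL, without overlap.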

How the data were processed

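RNA was sequenced from thalamus of the right hemisphere after perfusion with saline. Per the methods and the submitters' processing notes, the authors used Trimmomatic 0.39 for trimming and HISAT2 2.2.1 for alignment to GRCm38. Exonic read pairs were assigned to gene names by featureCounts 2.0.3 with no use of strand. They deposited log2 values for 29659 genes per library, from -2.27 to 18.98, in which low genes lie close together. The transform and annotation release are not given in the sources used here, and the files hold no counts. Log2 differences of low genes may therefore be too small. Read totals that the study states for the 5xFAD libraries were not used here.

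The members and all gene lists were chosen with earlier results of these data known. Genes with a mean of 3.32 or more over 15 libraries (10 on the linear scale) were tested with limma 3.58.1 in R 4.3.3 (lmFit, eBayes with a trend, two-sided, Benjamini-Hochberg over 15726 genes). 5ELKO against 5EL used the 9 libraries of those groups, and the other contrasts used all 15 with 1 mean per group. Single genes were also compared with two-sided exact permutation tests. Levels per kb used merged exon lengths from the GENCODE M21 annotation of GRCm38, in which all 92 kept symbols matched. Figures were drawn with matplotlib 3.10.9.

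Named in the text were the 10 highest genes per kb and family leaders, up to 4 genes of smallest nominal p under 0.05 per contrast, a preset list of glial, vascular and neuronal channels, the 5 most variable genes, and the 3 on either side of the level. Other genes in counts of nominal p were named after their values were seen, and not every gene under the rule is named, since some items are not reported here. In simulated data with 200 of 15726 genes changed, a change of 1 log2 unit was called in 95 to 98.5% of them over the 5 contrasts and a change of 0.5 in 83.5 to 89% (56.5% for the interaction), and at most 7.03% of calls were false. The simulated noise was normal and drawn for each gene on its own, without shifts shared by the genes of a library. In the real data EL replicate 3 was extreme for 45.1% of all genes, so these rates describe the simulated data only.

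Groups and replicate numbers come from the labels. The series' design text gives other numbers of EL and ELKO mice than the labelled libraries. Of 105 pairs of libraries 0 held identical values. Nothing in the labels says whether libraries of a group came from separate animals, so p-values measure the spread between libraries. EL and ELKO libraries of one replicate number varied together (correlations of 0.326 to 0.743 in 3 of 3 pairs), although no source says what they share. Between ELKO and 5EL these correlations were -0.132, 0.259 and 0.310. They ran from 0.054 to 0.228 between EL and 5EL and from -0.330 to 0.020 between EL and 5ELKO. Between ELKO and 5ELKO they ran from -0.320 to 0.215, and between 5EL and 5ELKO from -0.244 to 0.143. The main fits and the permutation tests did not pair libraries, and the number entered only as a block in an alternative. A further 5ELKO library of the study was not analysed here. Alternatives were the filter, the variance prior, the groups in the fit, a replicate block, covariates for choroid plexus markers and Xist less Ddx3y, recentring, and leaving out libraries. In all 15 libraries Xist lay between 0.17 and 0.31 and Ddx3y between 10.34 and 10.68 (log2). The covariate of Xist less Ddx3y therefore did not part male from female libraries.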

Additional observations from a re-analysis of the deposited data

Results flagged for a closer look

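Of 100 sets of 1 gene in 1 group of 4 or 5 libraries, 4 held a library far from the rest of its group. For genes picked without regard to their spread, chance alone flags about 1 in 20 such sets. The genes checked here included the 5 of largest SD within groups, Kcne2 and Kcnj13 among them. The rate therefore cannot be set beside the 4. Kcnj13 and Kcne2 in 5EL replicate 1, at 5.19 and 6.15 in log2, had gaps to the nearest library of 0.922 and 0.921 of the group's range. The other 5EL libraries lay between 3.81 and 3.92 and between 4.43 and 4.57. The choroid plexus list mean was 8.63 in that library, and its part in the gap was not tested. Kcnf1 in 5ELKO replicate 1 read 11.50 against 10.93 to 11.02, a gap of 0.838 of the range. Kcnrg in 5EL replicate 5 read 3.52 against 3.38 to 3.41, a gap of 0.744 of the range.

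The effect of Lilrb4a loss with 5xFAD less that without it passed a nominal p under 0.05 in limma for 5 channel genes. The values were 0.34 for Kcnj3, -0.45 for Kcna5, -0.40 for Kcnh8, 0.29 for Kcnc2 and -0.18 for Kcnk6 on the log2 scale, and 0 of the 5 had an adjusted p under 0.05. Without EL replicate 3 the differences were 0.23, -0.28, -0.24, 0.22 and -0.15.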

How the results depend on the processing

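No channel gene passed an adjusted p under 0.05 under any alternative, and the counts below are of genes at a nominal p under 0.05. For 5ELKO against 5EL, 0 became 1 with no filter, 1 with all 15 libraries and 3 with a replicate block. It became 1 with Xist less Ddx3y as a covariate and 5 with the reticular and GABA list as a covariate. With single libraries left out it ran from 0 to 5 (without 5ELKO replicate 1). 5EL replicate 5 was the only library of its number, so the block took it out of the difference. The median of the 79 log2 differences was 0.025 with the block and 0.025 without that library. For ELKO against EL, 4 became 2 with only these groups, 1 without the choroid-rich libraries, 7 without the 3 libraries lowest in reticular and GABA genes and 2 with that list as a covariate, and ran from 0 (without EL replicate 3) to 24 (without EL replicate 1). For 5EL against EL, 14 became 7 and 5 under the latter pair of settings, both chosen after the data were seen, and ran from 5 (without EL replicate 3) to 31 (without EL replicate 1). For 5ELKO against ELKO, 1 became 3 with only these groups, 2 without the choroid-rich libraries and 3 and 3 under the settings for reticular and GABA genes, and ran from 1 to 3. For the interaction, 5 became 0 with the choroid plexus list as a covariate and 1 without the choroid-rich libraries, and ran from 0 (without EL replicate 2 or 5ELKO replicate 2) to 14 (without EL replicate 1). Counts over all genes tested moved as well in several of these settings. Without EL replicate 1 they were 979 higher and 845 lower for ELKO against EL, and 1682 and 1514 for 5EL against EL. For the interaction they were then 586 and 636. With the reticular and GABA list as a covariate they were 317 and 297 for 5ELKO against 5EL. The cause of these changes was not tested.

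Same-numbered EL and ELKO libraries had correlations of 0.326 to 0.743. The replicate block, fitted over all 15 libraries, gave 6 channel genes for ELKO against EL. Of all genes tested, 204 were then higher and 232 lower. For 5EL against EL, where these correlations were 0.054 to 0.228, it gave 18 channel genes, beside 686 higher and 812 lower over all genes.

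Kcnj13 and Kcne2 changed sign. For ELKO against EL, Kcnj13 was -0.049 with the choroid plexus list as a covariate and -0.077 without the choroid-rich libraries, and Kcne2 was -0.015 without them. For 5EL against EL, Kcnj13 was -0.15 with the covariate, -0.017 without the choroid-rich libraries and -0.055 without the libraries lowest in reticular and GABA genes, and Kcne2 was -0.071 with the covariate. For 5ELKO against ELKO they were 0.046 and 0.032 without the choroid-rich libraries. With single libraries left out, Kcnj13 ran from -0.077 to 0.85 and Kcne2 from -0.015 to 1.08 for ELKO against EL, Kcnj13 from -0.017 to 0.33 for 5EL against EL, and Kcnj13 from -0.88 to 0.046 and Kcne2 from -1.06 to 0.032 for 5ELKO against ELKO. All values are log2 differences. Without the choroid-rich libraries the largest pooled SD within groups was 0.53, against 0.70.

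Under the alternatives that leave out no single library, 104 counts stayed within 1.5 times the main count and 18 did not. For 5ELKO against 5EL, however, 5EL replicate 1 was the only choroid-rich library and the only one of those lowest in reticular and GABA genes. Leaving out either set was there the same fit, without 5EL replicate 1, and the tally holds it under both names. The counts include those at an adjusted p under 0.05, which no channel gene passed under any alternative. Of the single-gene results, 186 kept direction and side of the threshold, 36 became weaker, 4 became stronger and 9 reversed. Depth was not weighed: the files hold no counts, and read totals stated by the study for 5xFAD libraries were not used.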
